A study of Homo sapiens with 12 samples.

Results

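CD2 and the receptors of the signalling lymphocytic activation molecule (SLAM) family are surface proteins of the immunoglobulin superfamily through which blood cells bind each other. The 9 genes described here, CD2, CD58, CD48, CD84, CD244, SLAMF1, SLAMF6, SLAMF7 and LY9, were found by their symbols among the 58381 genes in the deposited tables of the HMC-1 human mast cell line, and each symbol matched a gene in both tables. There were 12 RNA libraries, with 3 for every group. The HMC-1.1 group carries V560G in the receptor tyrosine kinase KIT, and HMC-1.2 carries V560G and D816V. HMC-1.3 clone 1 and HMC-1.3 clone 2 were made from HMC-1.2 by CRISPR/Cas9 reversal of V560G and carry D816V alone. The clones were grown out from single cells after electroporation and puromycin selection, so that each HMC-1.3 group is 1 clone. No such steps are described for HMC-1.1 or HMC-1.2. All cells are of mast cell leukemia origin, carry an activating KIT mutation and were kept in the same medium. The 3 libraries of a group came from replicate wells of the same line, and p-values therefore measure the spread between wells, which may be technical. Gene counts do not show the KIT alleles, and the genotypes are given as labelled.

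As background, CD2 is a receptor of T cells and natural killer (NK) cells that binds CD58 on the facing cell. Normal mast cells lack CD2, and its appearance is used as a diagnostic sign of neoplastic mast cells in mastocytosis. CD48 is a lipid-anchored protein and the ligand of CD244, whereas CD84, SLAMF1, SLAMF6, SLAMF7 and LY9 mostly bind a copy of themselves. The cytoplasmic tails of the SLAM receptors carry tyrosine motifs that recruit the small adaptors SAP (gene SH2D1A) and EAT-2 (gene SH2D1B), or, in their absence, phosphatases such as SHIP-1 (gene INPP5D).

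All 9 genes lie on chromosome 1 in 2 clusters (positions on GRCh38 from Gencode 44, matched by gene identifier). CD58 (116514534 to 116571039, minus strand) and CD2 (116754430 to 116769229, plus strand) sit within 255 kb on the short arm. The other 7 members fill 378 kb of the long arm in the order SLAMF6, CD84, SLAMF1, CD48, SLAMF7, LY9 and CD244. In this cluster CD84 covers 160541095 to 160579516 and CD48 covers 160678746 to 160711831, both on the minus strand. CD244 follows at 160830160 to 160862887, also on the minus strand, and SLAMF7 lies on the plus strand at 160739057 to 160754821.

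RefSeq (GRCh38.p14) gave a promoter for 6 of the 9 genes, namely CD2, CD58, CD48, CD244, SLAMF1 and SLAMF6. The 250 bases before the start of the ligand and receptor pairs CD2 with CD58 and CD244 with CD48 are shown, since CD2, CD48 and CD244 were the members with a promoter entry whose RNA was called higher in every group than in HMC-1.2, and CD58 was not called. They are written 5′ to 3′ on the strand of the gene, with capitals for the motifs named in the next paragraph. They span chr1:116754180-116754429 (CD2, plus strand), chr1:116571027-116571276 (CD58, minus), chr1:160711823-160712072 (CD48, minus) and chr1:160862888-160863137 (CD244, minus). The start is that of RefSeq, which for CD58 and CD48 lies slightly inside the Gencode position given above. A few bases of those stretches therefore fall within the genes as placed by Gencode.
CD2: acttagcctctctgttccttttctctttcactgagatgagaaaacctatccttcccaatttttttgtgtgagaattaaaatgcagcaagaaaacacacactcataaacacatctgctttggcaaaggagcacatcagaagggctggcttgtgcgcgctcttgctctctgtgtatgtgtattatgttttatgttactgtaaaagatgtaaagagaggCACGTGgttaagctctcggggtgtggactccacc
CD58: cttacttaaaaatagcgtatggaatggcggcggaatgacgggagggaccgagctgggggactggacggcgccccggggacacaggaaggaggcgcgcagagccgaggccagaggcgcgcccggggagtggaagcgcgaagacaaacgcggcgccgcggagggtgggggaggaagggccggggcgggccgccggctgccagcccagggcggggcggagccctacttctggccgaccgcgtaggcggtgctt
CD48: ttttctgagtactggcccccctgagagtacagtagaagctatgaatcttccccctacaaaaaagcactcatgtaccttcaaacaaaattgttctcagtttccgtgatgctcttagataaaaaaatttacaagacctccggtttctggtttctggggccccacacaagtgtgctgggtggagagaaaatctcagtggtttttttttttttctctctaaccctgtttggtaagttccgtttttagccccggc
CD244: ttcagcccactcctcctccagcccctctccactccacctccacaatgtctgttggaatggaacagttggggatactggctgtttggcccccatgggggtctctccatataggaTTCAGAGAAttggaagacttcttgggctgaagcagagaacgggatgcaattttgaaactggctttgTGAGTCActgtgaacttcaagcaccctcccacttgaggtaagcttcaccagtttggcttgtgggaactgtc

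The promoters differed in base composition. That of CD58 was 72.0% G and C and held 31 CpG sites, those of CD2 and CD48 were 42.8% and 43.2% G and C with 4 CpG sites each, and that of CD244 was 51.6% G and C with 1 CpG site. Over 27305 RefSeq promoters the median was 58.0% and 11 CpG sites. A short list of motifs, picked after the promoter sequences had been read, was searched on both strands, and no 2 hits overlapped. CACGTG, an E-box, was found in CD2 at 34 to 29 bases before the start and occurs in 6.49% of all promoters of this length. TGANTCA, an AP-1 type motif, was found in CD244 at 71 to 65 bases (6.6% of promoters), as was TTCNNNGAA, a STAT type motif, at 137 to 129 bases (6.78%). The E-box variant CATGTG (9.54% of promoters), the GATA type motif GATAAG (5.65%) and the ETS type motif GAGGAAGT (2.13%) were not found in the 6 promoters. These matches describe letters only, and binding was not measured.

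Of the 9 genes, 6 were expressed, which was taken as a mean of at least 1 FPKM (deposited fragment counts scaled by transcript length and library size) in at least 1 group. These were CD58, CD48, CD244 and SLAMF7 in all 4 groups, CD2 in HMC-1.1 and HMC-1.3 clone 1, and CD84 in HMC-1.2 only. SLAMF7 reached this mean in HMC-1.2 through 1 library, at 1.47 FPKM. SLAMF1 and SLAMF6 were low, with means of at most 0.14 and 0.28 FPKM, and passed the filter on counts. LY9 had a single count in HMC-1.1 replicate 3 and 0 in the other 11 libraries. A count of 0 allows a level of up to 3 counts, or 0.0695 to 0.103 CPM (counts scaled by library size) across the libraries, and this limit covers counting error only. LY9 failed the filter and was not tested, so that 8 of the 9 genes have a test. The genes of the SLAM family outside the 9 were also low, with 7 to 26 counts per library for SLAMF8 and 1 to 10 for SLAMF9. SLAMF8 was called lower in HMC-1.1 than in HMC-1.2 (log2 -1.17, SE 0.45, adjusted p = 0.035).

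**Figure D1:**
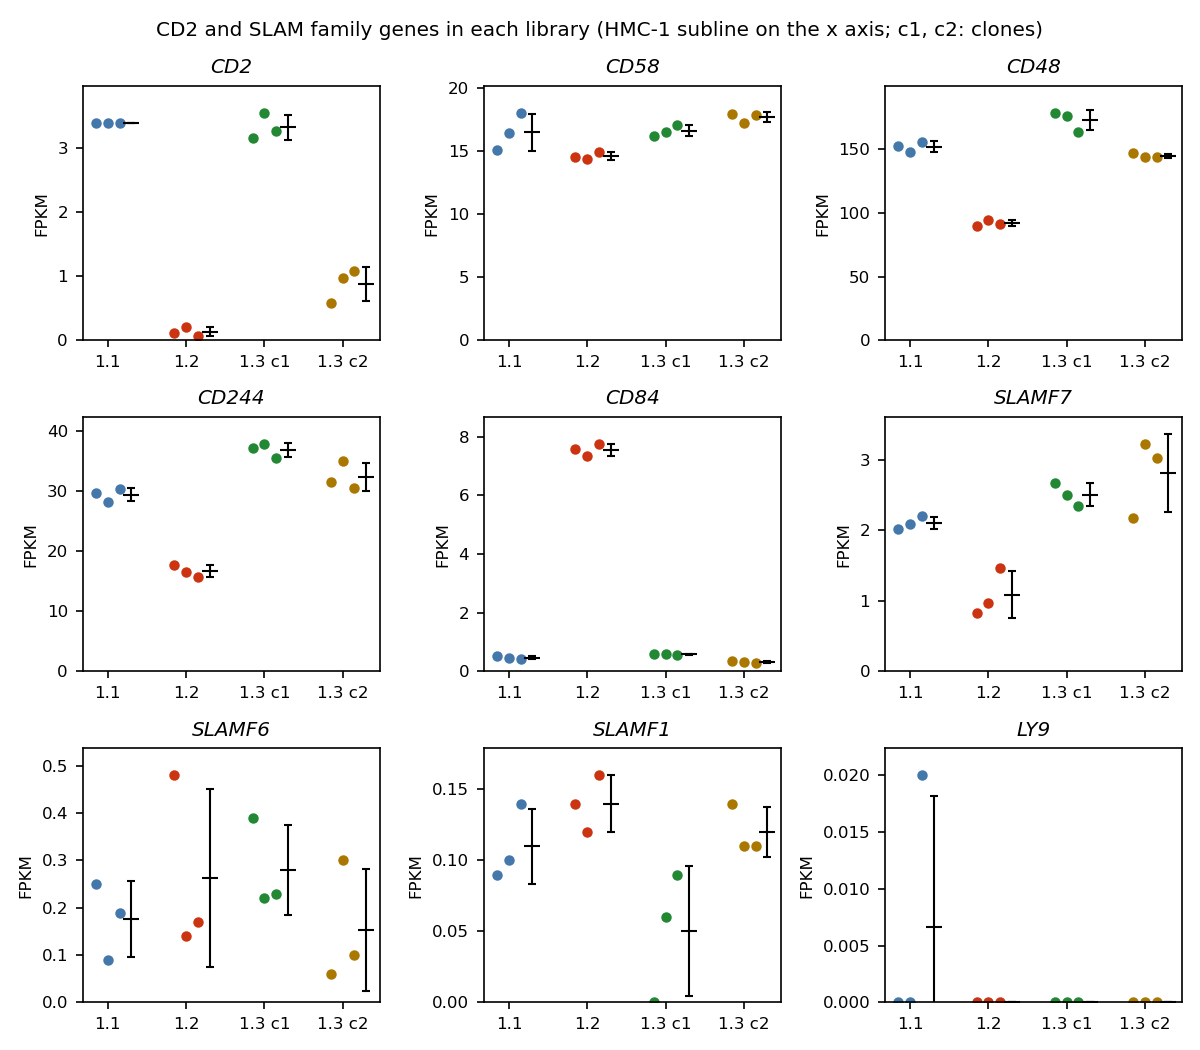
Deposited FPKM (linear y axes that start at 0 and differ between panels) of the 9 genes in each of the 12 libraries, grouped on the x axis by subline (1.1, 1.2, and clones c1 and c2 of 1.3). Each dot is 1 library, and the black dash and bars are the mean and SD of 3 libraries. HMC-1.2 is the lowest group for CD2, CD48, CD244 and SLAMF7 and, by a small margin, for CD58. It is the only group in which CD84 lies above 1 FPKM.

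The library totals ran from about 29225900 to 43181400 expected counts. Replicates of a group differed by more than counting error, with chi-square values of 2.92 to 8.22 per degree of freedom, so no library was counted as a copy of another. The labels mark 1 library of HMC-1.2 and 1 of each edited clone as resent. The cells were checked against marker genes, and of 11 mast cell markers 8 to 9 reached 1 FPKM in each group. KIT had group means of 356 to 450 FPKM, and CMA1, which encodes chymase, was under 0.1 FPKM in every group. MS4A2 reached 1 FPKM in no group, and FCER1A only in HMC-1.2 and clone 2. Of 14 T and NK cell markers, TRAC was above 1 FPKM in every group and NCAM1 in HMC-1.2, whereas CD3E, CD3G, CD4, CD5, CD7, CD8A, CD28, GNLY and KLRD1 were below 0.1 FPKM in all groups. In bulk RNA, fewer cells that express a gene and less RNA per cell cannot be told apart.

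CD84, a self-binding SLAM receptor that is known from mast cells, platelets and B cells, was high in HMC-1.2 alone. In HMC-1.2 it stood at 7.58, 7.34 and 7.74 FPKM, from 1882, 1603 and 1546 counts. In HMC-1.1 the values were 0.53, 0.45 and 0.43 FPKM, from 147, 127 and 130 counts. In clone 1 they were 0.58, 0.59 and 0.57 FPKM (141, 123 and 137 counts). In clone 2 they were 0.37, 0.31 and 0.28 FPKM (99, 95 and 94 counts). These groups had low rather than absent CD84 RNA. Every HMC-1.2 library was thus far above every other library. CD84 was 14.3-fold lower in clone 1 than in HMC-1.2 (log2 fold change -3.84, SE 0.085, adjusted p = 2.2e-16) and 21.3-fold lower in clone 2 (-4.41, SE 0.093, adjusted p = 7.2e-17). In HMC-1.1, it was 14.7-fold lower (-3.88, SE 0.085, adjusted p = 1.9e-16). By mean level CD84 ranked 8390th of 15944 tested genes in HMC-1.2 and between 13690th and 14365th in the other groups. Clone 1 lay slightly above HMC-1.1 in FPKM without overlap, while the difference in counts missed the threshold (0.03, 95% interval -0.17 to 0.24, adjusted p = 0.86), and the lowest group was clone 2, whose libraries lay below those of HMC-1.1 (-0.54, SE 0.11, adjusted p = 0.0010) and clone 1 without reaching the fold of 1.5.

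CD2 went the other way and separated 3 levels. The HMC-1.2 libraries held 6, 9 and 3 counts, which gave 0.12, 0.21 and 0.07 FPKM. Clone 2 followed with 28, 52 and 54 counts (0.59, 0.97 and 1.09 FPKM), and clone 1 had 155, 174 and 156 counts (3.17, 3.55 and 3.28 FPKM). HMC-1.1 had nearly equal values of 3.40, 3.40 and 3.39 FPKM from 174, 163 and 178 counts. The groups HMC-1.2, clone 2 and the pair of clone 1 with HMC-1.1 did not overlap, and clone 1 and HMC-1.1 overlapped. Against HMC-1.2, CD2 was 23.1-fold higher in clone 1 (adjusted p = 8.1e-11), 5.95-fold in clone 2 (adjusted p = 1.4e-06) and 23.8-fold in HMC-1.1 (adjusted p = 8.1e-11). Clone 2 was below HMC-1.1 by -1.999 on the log2 scale (SE 0.18, adjusted p = 1.3e-07), while clone 1 and HMC-1.1 had a difference of -0.04 (95% interval -0.34 to 0.26, adjusted p = 0.89). Since the HMC-1.2 libraries are at 3 to 9 counts, these folds carry wide intervals, which were 3.88 to 5.18 on the log2 scale for clone 1 and 1.90 to 3.25 for clone 2.

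The partner of CD2 hardly moved. CD58, the adhesion ligand found on most cells, was at 14.51, 14.34 and 14.96 FPKM in HMC-1.2 and at 15.06, 16.45 and 17.99 FPKM in HMC-1.1. Clone 1 gave 16.22, 16.52 and 17.07 FPKM, and clone 2 gave 17.96, 17.20 and 17.88 FPKM. All HMC-1.2 libraries were below all others, but the differences were small: on the log2 scale they were 0.15 in clone 1 (95% interval 0.01 to 0.30, adjusted p = 0.078) and 0.24 in clone 2 (0.10 to 0.38, adjusted p = 0.011), and HMC-1.1 was 0.14 above HMC-1.2 (adjusted p = 0.11). The clone 2 difference passed the p threshold and none reached the fold of 1.5. As a result of the levels of CD2, the ratio of CD58 to CD2 in FPKM was 68.3 to 214 across the HMC-1.2 libraries and 16.4 to 30.4 across those of clone 2, against 4.65 to 5.20 in clone 1 and 4.43 to 5.31 in HMC-1.1. Of the mastocytosis markers IL2RA (CD25) and TNFRSF8 (CD30), IL2RA was highest in HMC-1.2, at 66.2 ± 0.481 FPKM (SD, n = 3) against means of 34.4 to 40.9 FPKM elsewhere, and TNFRSF8 had 1 to 15 counts per library, too few to show a pattern.

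CD48 and its receptor CD244 were the members with the most RNA after correction for length, together with CD58, and were higher in every group than in HMC-1.2. CD48 made up 69.5% to 74.5% of the summed FPKM of the 9 genes and ranked 592nd to 1259th of 15944 tested genes. Its values were 89.99, 94.74 and 91.47 FPKM in HMC-1.2 against 178.18, 176.37 and 163.54 in clone 1, 146.69, 143.88 and 143.93 in clone 2, and 152.49, 147.48 and 155.97 in HMC-1.1. No library of HMC-1.2 came near the other groups. The log2 fold changes were 0.85 in clone 1 (SE 0.040, adjusted p = 9.2e-12), 0.61 in clone 2 (SE 0.040, adjusted p = 8.5e-10) and 0.67 in HMC-1.1 (SE 0.040, adjusted p = 2.8e-10). The last 2 are 1.53-fold and 1.59-fold, close to the fold of 1.5, and lost their call when the test was made against that fold (adjusted p = 0.62 and 0.065 with glmTreat). The HMC-1.1 libraries lay above those of clone 2 in FPKM, but their difference in counts missed the threshold (-0.06 for clone 2, 95% interval -0.13 to 0.02, adjusted p = 0.28). Clone 1 was also higher than HMC-1.1 (0.18, adjusted p = 0.0039) and than clone 2 (0.24, adjusted p = 7.6e-05), both below the fold of 1.5.

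CD244, the receptor also known as 2B4 on NK cells and mast cells, followed the same order of groups at lower levels, except that HMC-1.1 and clone 2 changed places. HMC-1.2 had 17.66, 16.51 and 15.74 FPKM and HMC-1.1 had 29.64, 28.20 and 30.32 FPKM. Clone 2 had 31.55, 34.99 and 30.47 FPKM, and clone 1 had the highest values of 37.09, 37.74 and 35.41 FPKM. CD244 was called higher than in HMC-1.2 in clone 1 (2.11-fold, log2 1.08, SE 0.058, adjusted p = 6.3e-11), in clone 2 (1.89-fold, 0.92, SE 0.058, adjusted p = 6.1e-10) and in HMC-1.1 (1.71-fold, 0.78, SE 0.059, adjusted p = 6.3e-09). The clone 2 libraries lay above those of HMC-1.1 in FPKM, and the difference in counts (0.14, 95% interval 0.03 to 0.25) missed the threshold at an adjusted p = 0.055, with a range of 0.011 to 1 over the alternatives. The ratio of the ligand to the receptor was between 4.11 and 5.81 in all libraries. CD48 FPKM was 5.10 to 5.81 times that of CD244 across the HMC-1.2 libraries and 5.14 to 5.23 times across those of HMC-1.1, and the ratio was lower for clone 1 (4.62 to 4.80) and clone 2 (4.11 to 4.72). Across the 12 libraries, log2 CPM of CD48 and CD244 had a correlation of 0.97 (Pearson's r), and CD84 was negatively related to CD48 (-0.92), CD244 (-0.94) and SLAMF7 (-0.95). These coefficients are descriptions, since the libraries fall into groups and HMC-1.2 stands apart.

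SLAMF7, a self-binding receptor known from plasma cells and NK cells, was the lowest of the genes expressed in all groups. It was at 0.83, 0.97 and 1.47 FPKM in HMC-1.2, at 2.02, 2.09 and 2.20 FPKM in HMC-1.1, at 2.67, 2.5 and 2.35 FPKM in clone 1 and at 2.18, 3.22 and 3.03 FPKM in clone 2. The HMC-1.2 libraries lay below all others, and those of the clones overlapped. SLAMF7 was higher than in HMC-1.2 by 1.31 in clone 1 (SE 0.15, adjusted p = 6.4e-07), 1.48 in clone 2 (SE 0.15, adjusted p = 1.7e-07) and 0.99 in HMC-1.1 (SE 0.15, adjusted p = 2.4e-05) on the log2 scale. The clones did not differ detectably (-0.17, 95% interval -0.42 to 0.08, adjusted p = 0.30).

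The low members gave unstable differences. SLAMF1, a self-binding SLAM receptor known from lymphocytes, had 20, 14 and 12 counts in HMC-1.2, 11 in each library of HMC-1.1, 14, 16 and 11 in clone 2, and 0, 8 and 12 in clone 1. It was called lower in clone 1 than in HMC-1.2 (log2 -1.37, SE 0.58, adjusted p = 0.044). This call was lost in 16 of 23 alternative settings, among them that without clone 1 replicate 1, the library at 0 (-0.80, adjusted p = 0.11). SLAMF6, known from T, B and NK cells, had 29, 11 and 12 counts in HMC-1.2, 23, 8 and 16 in HMC-1.1, 35, 20 and 20 in clone 1, and 5, 18 and 11 in clone 2. Its groups overlapped in FPKM, and it was not called against HMC-1.2 in any group. Between the clones it was called higher in clone 1 (1.24, SE 0.47, adjusted p = 0.034), and this call was lost without clone 1 replicate 1 (0.91, adjusted p = 0.17), clone 2 replicate 1 (0.95, adjusted p = 0.12) or clone 2 replicate 3 (1.14, adjusted p = 0.095).

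**Figure D2:**
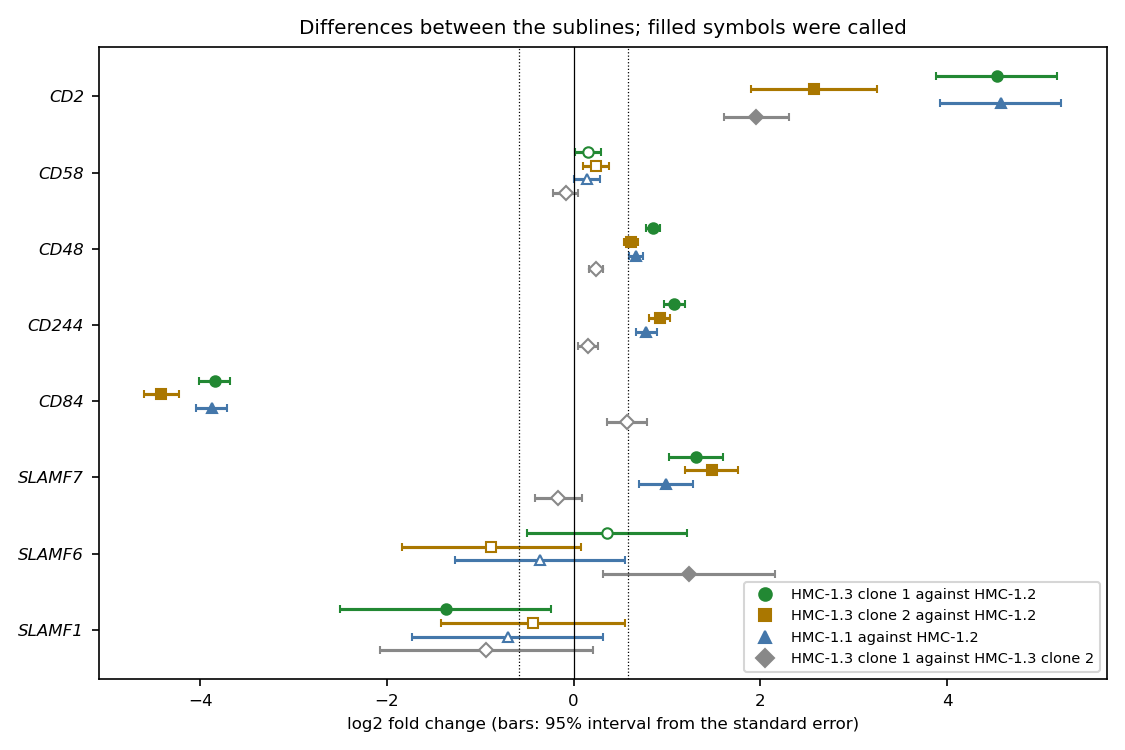
Log2 fold changes (x axis) of the 8 tested genes (y axis) in the 3 comparisons against HMC-1.2 and between the clones, with bars for the 95% interval from the standard error and dotted lines at a fold of 1.5. Filled symbols were called, and CD84 lies at -4.41 to -3.84 against HMC-1.2 while CD2 lies at 2.57 to 4.57 and CD48, CD244 and SLAMF7 lie at 0.61 to 1.48.

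Calls required a fold over 1.5 together with an adjusted p below 0.05 in edgeR's quasi-likelihood test over all 15944 genes. Of the 8 tested members, 4 were called higher and 2 lower in clone 1 against HMC-1.2, beside 11.8% of all tested genes higher and 8.18% lower. In clone 2 against HMC-1.2, 4 were higher and 1 was lower (7.98% and 8.51% of all genes). For HMC-1.1 set against HMC-1.2, 4 were again higher and 1 was lower (10.1% and 7.52%). These 3 comparisons share the HMC-1.2 libraries. The genes called higher in all 3 were CD2, CD48, CD244 and SLAMF7, and CD84 was called lower in all 3. The median log2 fold change of the 8 members was 0.60, 0.43 and 0.40, and that of all genes was 0.01, -0.00 and 0.01.

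Fewer members were called among the groups with a single KIT mutation, where fewer of all genes were called too. Between clone 1 and HMC-1.1, which carry D816V and V560G respectively, none of the 8 was called by edgeR, DESeq2 or limma, beside 0.671% of all genes higher and 0.339% lower in clone 1. Without adjustment 3 members had p under 0.05 there, and no share of all genes at that threshold is given here. CD48 and CD244 passed the p threshold after adjustment, at 0.18 and 0.30 on the log2 scale. SLAMF1 (-0.67, SE 0.60) and SLAMF6 (0.72, SE 0.44) exceeded the fold of 1.5 at low counts and missed the p threshold. Between clone 2 and HMC-1.1, CD2 was the only member called, as lower in clone 2 (3.04% of all genes were higher and 5.15% lower), while CD84 (-0.54) and SLAMF7 (0.49, adjusted p = 0.0074) passed the p threshold. Both reached the fold of 1.5 without clone 2 replicate 1. Between the clones, CD2 and SLAMF6 were called higher in clone 1 (8.38% of all genes were higher and 4.25% lower). CD84 reached 1.49-fold there (0.57, SE 0.11, adjusted p = 3.4e-04). It was called with upper-quartile factors (0.60), with limma on log2(FPKM + 0.1) (0.70), and without clone 2 replicate 1 (0.68) or clone 1 replicate 2 (0.64).

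The proteins that carry the signal of these receptors were taken from a list of 27 genes, of which 20 could be tested. The adaptors SAP and EAT-2 were at or near 0, with 0 to 1 counts per library for SH2D1A and 0 to 2 for SH2D1B. The T cell kinase LCK and the CD2-binding protein gene PSTPIP1 had at most 1 count, and PTPRC, which encodes the phosphatase CD45, had at most 12. FYN, the kinase that SAP recruits, was present at group means of 32.5 to 44.7 FPKM, and LYN, the main Src family kinase of mast cells, at 81.2 to 90.6 FPKM.

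Of the 20 tested genes, 1 was called higher and 3 lower in clone 1 against HMC-1.2, 1 higher and 4 lower in clone 2, and 1 higher and 3 lower in HMC-1.1. Over all tested genes the shares were 11.8% higher and 8.18% lower, 7.98% and 8.51%, and 10.1% and 7.52% for the same comparisons in turn, and nothing particular to the list is read from its counts. The median log2 fold changes of the list were -0.07, -0.06 and -0.03, beside 0.01, -0.00 and 0.01 for all genes. INPP5D, which encodes the inositol phosphatase SHIP-1, had 129 ± 2.84 FPKM in HMC-1.2 against 25.5 ± 0.467 FPKM for clone 1 and 25.6 ± 1.19 FPKM for HMC-1.1 (SD, n = 3). The clone 2 libraries lay at 29.6 to 30.8 FPKM. Its log2 fold changes were -2.58 in clone 1 (adjusted p = 1.0e-19) and -2.12 in clone 2 (adjusted p = 1.1e-18). PLCG2, a phospholipase that acts downstream of immune receptors, was the gene called higher, at a mean of 59.2 FPKM for clone 1, 52.2 for HMC-1.1 and 45.1 for clone 2 against 30.8 for HMC-1.2. Its clone 2 difference (0.62, 1.53-fold) was not called by limma on log2(FPKM + 1).

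PRKCQ, a protein kinase C isoform of the T cell synapse, was lower in clone 1 (-1.38) and clone 2 (-2.67) than in HMC-1.2, as was WAS, a regulator of the actin skeleton (-0.74 and -1.67). YES1, a Src family kinase, was called lower in clone 2 (-1.08) and was at -0.30 in clone 1. PRKCQ, WAS and YES1 were the 3 genes of the list called higher in clone 1 than in clone 2, by 1.29, 0.93 and 0.79 on the log2 scale. The same 3 were called lower in clone 2 than in HMC-1.1, and 0 of the list were called between clone 1 and HMC-1.1 by edgeR. There 6 had an unadjusted p under 0.05, and the share of all genes at that threshold is not given. NCF1 has near-identical copies in the genome, and its value is uncertain.

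**Figure D3:**
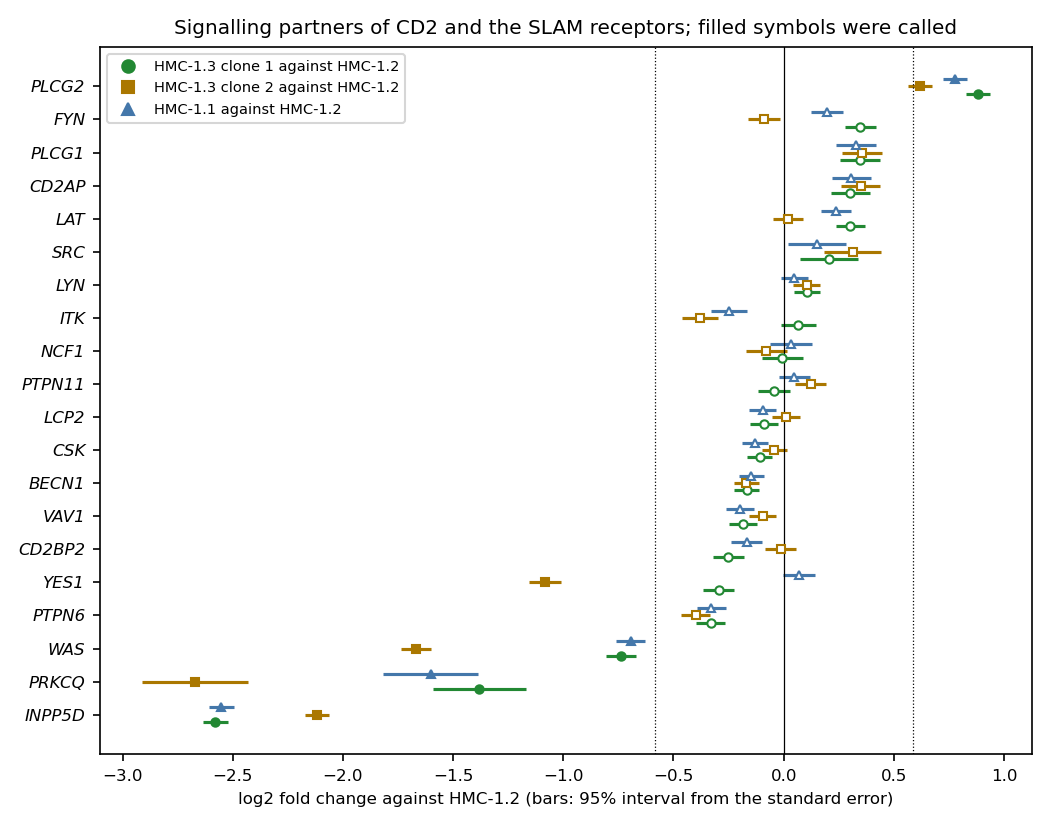
Log2 fold changes against HMC-1.2 (x axis) of the 20 tested signalling genes (y axis, ordered by clone 1) in clone 1, clone 2 and HMC-1.1, with 95% intervals from the standard error and dotted lines at a fold of 1.5. Filled symbols were called, with INPP5D at -2.58 to -2.12 and PLCG2 at 0.62 to 0.88.

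The neighbours on the chromosome were examined because CD84 lies within the same cluster as CD48, CD244 and SLAMF7 and moved in the opposite direction. Of 63 further genes that were matched within 500 kb of the long-arm cluster, 31 were tested. Of these, 2 were called higher and 4 lower in each clone against HMC-1.2, and 2 higher and 5 lower in HMC-1.1. Beside them stand 11.8% and 8.18% of all genes for clone 1, 7.98% and 8.51% for clone 2, and 10.1% and 7.52% for HMC-1.1. The medians of the neighbours were -0.10, -0.05 and -0.08. With limma on log2(FPKM + 1), 1 was called lower for HMC-1.1 as for clone 1, and 2 for clone 2. The nearest called genes were RP11-404F10.2, an antisense RNA that overlaps CD48, VANGL2 at 56.4 kb from SLAMF6 (-4.22 and -3.76) and ITLN2 at 82.1 kb from CD244 (3.38 and 3.29). Around CD58 and CD2, 6 of 30 matched genes were tested, and edgeR called 0 in either clone. In each clone 3 had an unadjusted p under 0.05, with no share of all genes at that threshold beside it. IGSF3, next to CD58, was called higher in HMC-1.1 (0.62, adjusted p = 3.6e-08) and was just under the fold of 1.5 in clone 1 (0.57, adjusted p = 7.1e-08) and clone 2 (0.52, adjusted p = 3.6e-07).

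The sequence of CD58 holds the pseudogene NAP1L4P1 on the same strand, which had 2 to 11 counts per library, and an antisense RNA over CD84 had at most 1 count. RP11-404F10.2 had 26 to 33 counts in HMC-1.2 and 2 to 14 in the other libraries, against 2432 to 5912 counts of CD48. It was called lower by -1.98 in clone 1 and -3.50 in clone 2, the direction opposite to CD48. The libraries were made with a stranded kit, but the strand setting of the counting is not given in the sources used here, and reads of CD48 and its antisense RNA may not be fully told apart.

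**Figure D4:**
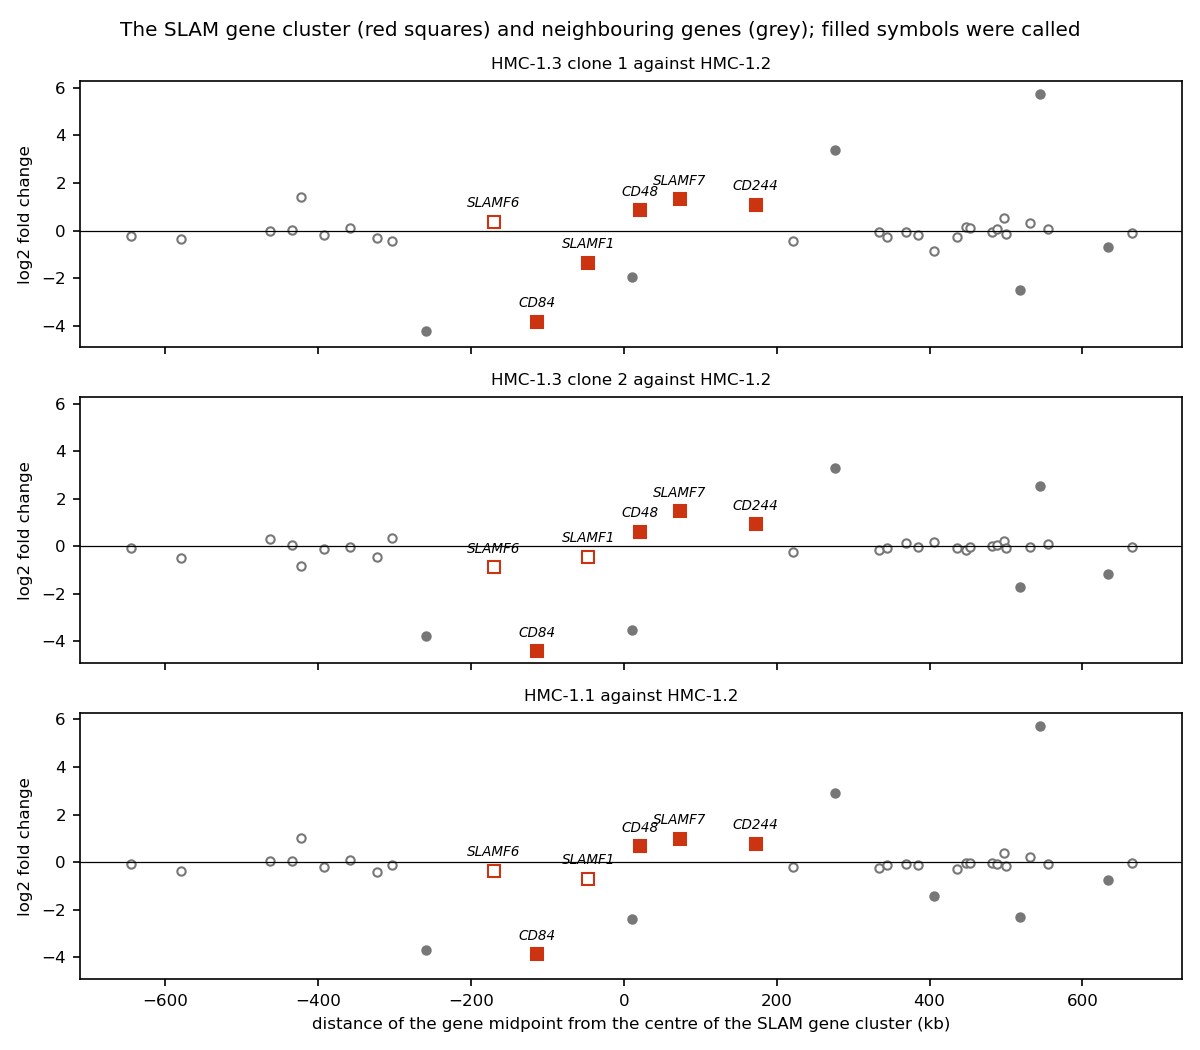
Log2 fold changes against HMC-1.2 (y axis) of tested genes of the long-arm cluster (red squares, named) and of their neighbours within 500 kb (grey circles) by distance of the gene midpoint from the cluster centre in kb (x axis), for clone 1, clone 2 and HMC-1.1 from top to bottom. Filled symbols were called, and CD84 lies between SLAMF6 and SLAMF1 at -4.41 to -3.84 while CD48, SLAMF7 and CD244 lie at 0.61 to 1.48.

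Genes outside the 9 with the most similar pattern were taken by Pearson's r of log2 CPM over the 12 libraries, among 13108 genes averaging 1 CPM or more. For CD84 they were MYB (0.998), TPSAB1 (0.997) and FAM117A (0.996), with TPSAB1 uncertain because it shares reads with the near-identical TPSB2. USP3 (0.991), LINC00624 (0.990) and TCP11L2 (0.989) were nearest to CD2. For CD48 the nearest were TMBIM4 (0.992), TMEM183A (0.991) and CD302 (0.990), and for CD244 they were BAMBI (0.990), EMID1 (0.990) and ENO3 (0.989). SLAMF7 was nearest to TBC1D20 (0.981), NARS2 (0.978) and SDC3 (0.976). CD58, which varied least, had lower values, with VASH2 (0.901), TRMT13 (0.869) and GMDS (0.857). The points share 4 groups, so high values are given by any gene with the same order of groups.

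Markers of other cells moved with the groups as well. The summed FPKM of the 14 T and NK cell markers was 10.3 to 11.8 in the HMC-1.2 libraries, 2.40 to 2.64 in HMC-1.1, 2.23 to 2.97 in clone 1 and 3.30 to 4.25 in clone 2. The excess in HMC-1.2 was carried by NCAM1, at 8.18 ± 1.02 FPKM (SD, n = 3), and CD2 was lowest in the same group. The sum of the 11 mast cell markers was 2275 to 2310 in HMC-1.2 and 1571 to 1683 in all other libraries, and the excess in HMC-1.2 was mostly TPSAB1, at 592 FPKM against means of 29.4 to 44.2 FPKM in the other groups. Against HMC-1.2, 1 of the 10 tested mast cell markers was called higher and 4 lower in each of the other groups. Over all tested genes the shares were 11.8% higher and 8.18% lower for clone 1, 7.98% and 8.51% for clone 2, and 10.1% and 7.52% for HMC-1.1. The marker called higher was CPA3, which encodes a mast cell protease, at 3.31 FPKM in HMC-1.2 and means of 7.52 to 10.9 FPKM elsewhere. KIT had its lowest mean in HMC-1.2, at 356 FPKM against 405 to 450 FPKM, a difference under the fold of 1.5. Of the 6 monocyte and macrophage markers, LYZ reached 1 FPKM in every group and FCGR1A in HMC-1.2, with sums of 1.79 to 4. The part of these differences in the levels of the adhesion receptors was not tested.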

How the data were processed

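The 12 RNA libraries were grouped by their labels. Per the submitters' processing notes and the paper, the authors used Cutadapt 2.10 for trimming and STAR 2.5.3 for alignment to hg38, marked duplicates with Picard and counted genes with RSEM 1.3.0. The deposited expected counts are unnormalized estimates, of which 7.39% are not whole, and they were rounded. The deposited FPKM values, which the authors scaled by transcript length and depth, were used for levels.

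The counts were tested in edgeR 4.0.16 under R 4.3.3 by the quasi-likelihood method, with TMM factors, filterByExpr and the 4 groups in 1 model. P-values were adjusted by Benjamini-Hochberg over all 15944 genes of each comparison, and standard errors were computed from the fit. On simulated counts for clone 1 against HMC-1.2 (15645 genes, 200 changed), edgeR called 199 of the changed genes with 5 false calls. Alternatives tried were DESeq2 1.42.0, limma 3.58.1 on log2(FPKM + 1) or log2(FPKM + 0.1), upper-quartile factors, other filters, only the groups compared, a replicate block, a term for resent libraries, glmTreat, and leaving out each library. The library totals are in the report, and their number of counts per gene sets the precision.

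The members, gene lists and tests were chosen with earlier results of these data known. Named are the 9 genes, SLAMF8, SLAMF9, IL2RA, TNFRSF8, called signalling genes, the 3 nearest called neighbours, the 3 most similar genes, and cell type markers. The other signalling genes given by name were chosen after their values were seen. The list of B and plasma cell markers is not reported here.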

Additional observations from a re-analysis of the deposited data

Results flagged for a closer look

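The change of CD2 against HMC-1.2 differed between the clones, as tested by the difference between clone 1 and clone 2 itself. It was larger in clone 1 by 1.96 on the log2 scale (SE 0.18, adjusted p = 9.7e-08, edgeR), and all 3 clone 1 libraries were above all 3 clone 2 libraries. SLAMF6 was flagged by the same test, with a difference of 1.24 (SE 0.47, adjusted p = 0.034) at 5 to 35 counts per library of the clones and overlapping FPKM. Groups of 3 libraries were not searched for outlying samples.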

How the results depend on the processing

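Of 1104 values of a member's log2 fold change under another setting, 27 lost a call, 7 gained one and the other 1070 stayed on their side of the thresholds. No called value changed sign, and 7 values of 4 differences that were not called did, namely SLAMF6 between HMC-1.1 and HMC-1.2 and CD2, CD58 and CD84 between clone 1 and HMC-1.1. The calls of CD2, CD84 and CD244 against HMC-1.2 were kept in all 23 settings in each group. The log2 fold change of CD2 against HMC-1.2 fell to 1.94 in clone 1 and 0.72 in clone 2 with limma on log2(FPKM + 1). That pseudocount shrinks low values. Leaving out 1 library gave log2 fold changes of CD2 of 4.27 to 4.97 in clone 1 and 2.32 to 3.01 in clone 2, highest without HMC-1.2 replicate 2. The log2 fold change of SLAMF7 in HMC-1.1 fell to 0.58 with limma on log2(FPKM + 1), under the fold of 1.5. CD48 lost its calls in clone 2 and HMC-1.1 only with glmTreat.

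All genes called were 3193, 2630, 2803, 161, 1306 and 2013 in clone 1, clone 2 and HMC-1.1 against HMC-1.2, clone 1 and clone 2 against HMC-1.1, and clone 1 against clone 2. In that order they were 1932, 1612, 1618, 9, 552 and 837 with glmTreat, 1902, 1453, 1514, 61, 566 and 969 with limma on log2(FPKM + 1), and 1907, 1457, 1511, 50, 550 and 943 without its filter. DESeq2 called 87 genes between clone 1 and HMC-1.1. Leaving out 1 library gave 3137 to 3270, 2543 to 2730, 2680 to 2874, 107 to 197, 1189 to 1326 and 1866 to 2028 genes, with the 107 without clone 1 replicate 2. Members called were then 5 to 6, 5 to 5, 5 to 5, 0 to 0, 1 to 3 and 1 to 3. The 3 in clone 2 against HMC-1.1 came without clone 2 replicate 1, when CD84 (-0.64) and SLAMF7 (0.60) were added. Between the clones, 1 member was called with glmTreat and limma with or without its filter, and without clone 1 replicate 1 or clone 2 replicate 3, and SLAMF6 was the gene lost. It was also lost with limma on log2(FPKM + 0.1) (0.67, adjusted p = 0.22) and without clone 2 replicate 1, and both gained CD84. The 3 members called came with CD84 added (upper-quartile factors, or without clone 1 replicate 2) or with SLAMF1 added as lower in clone 1 (-1.68, without clone 1 replicate 3). The causes were not tested. With 5 or 1 FPKM or 0.5 FPKM as the level of expression, 4, 6 and 6 members were expressed.

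Deviations of same-numbered libraries had a median r of 0.158 over 18 pairs (9 over 0.1), and those of other pairs a median of -0.011 (13 of 36 over 0.1), and 7 of 12 libraries were closest to their own number, which is a hint from the data only. As not every same-numbered pair was over 0.1 and no label gives a shared batch, the libraries were not taken as paired. With a replicate block, SLAMF1 lost its call in clone 1 (-1.39, adjusted p = 0.056), no other member call changed, and 3185 genes were called there. SLAMF1 and SLAMF6 had at most 35 counts per library, which limits what can be seen of them at this depth.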
